A study of Mus musculus with 2 samples.

Results

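Oxidative phosphorylation is carried out by 5 protein complexes of the inner mitochondrial membrane. The nuclear genes described here are all rows of the deposited gene table whose symbols begin with Nduf and a subunit letter and number, are Sdha, Sdhb, Sdhc or Sdhd, or begin with Uqcr, with Cox followed by a number from 4 to 8, or with Atp5. That rule found 87 of 18088 rows. By their known roles, 37 belong to complex I, 4 to complex II, 8 to complex III, 15 to complex IV and 16 to complex V. The 37 include Ndufb4c, which is annotated as a processed pseudogene and was grouped with the accessory genes of complex I. A further 3, Cox7a2l, Atp5s and Ndufa4l2, are related genes that are not counted as subunits here, and 4, Atp5l-ps1, Cox6c2, Ndufs6b and Ndufa11b, are processed pseudogenes to which no role was given.

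Complex I takes electrons from NADH and complex II, which is also an enzyme of the tricarboxylic acid (TCA) cycle, takes them from succinate. Complex III passes them to cytochrome c and complex IV from there to oxygen, and complexes I, III and IV pump protons that complex V, the ATP synthase, uses to make ATP. Most subunits are encoded in the nucleus and a few in the mitochondrial genome, of which the table held 0 rows. Neural progenitors are known for strong glycolysis, and neurons for their reliance on oxidative phosphorylation.

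The cells came from the medial ganglionic eminence (MGE), the part of the embryonic ventral forebrain that makes cortical interneurons and cholinergic neurons. The tissue was from CD-1 mouse embryos at E11.5. It was profiled by MULTI-seq on a 10x Chromium instrument, which marks cell suspensions with lipid-anchored barcodes so that they can be pooled. The barcode list named 6 suspensions, 4 of them gated on GFP and 2 ungated, and either enhancer studied, hs192 or hs799, had 2 of the gated ones. No map from cells to these barcodes was used here. Since 4 of the suspensions were gated, shares of cells are not shares of the tissue. All cells therefore count as 1 sample from 1 RNA library. Cells are not replicates, so the ratios below carry no p-value and no standard error.

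The table held 4001 cells with 10475 to 14196 summed values each (median 12506) and 2471 to 5486 genes with a value (median 3989). The numbers are whole, and from their narrow cell totals they were taken as already corrected for depth, so the raw depth of a cell is unknown. A doublet caller marked 6 cells, 0.150% of all, which says little about how many doublets there were, and 3995 cells were kept. They were grouped into 17 clusters with the 87 genes left out of the grouping. Clusters took a name only from marker genes: 1048 cells were ventricular zone (VZ) progenitor-like, 548 subventricular zone (SVZ) progenitor-like and 2233 neuron-like. Hes5, a Notch target of progenitors, had a level of 12.3 in the VZ class and 0.279 in neurons, and the neuronal tubulin Tubb3 had levels of 1.95 and 32.2. Both are among the markers that named these classes, so they are no independent check of the names. A level, here and below, is the summed value of a gene per 10000 summed values of all genes in the class, and is not divided by transcript length. Among the neurons, 927 were GABAergic MGE-like, 932 cholinergic-like, 121 like those of the lateral ganglionic eminence (LGE), 153 like those of the caudal ganglionic eminence (CGE) and 100 without a subtype, and 166 further cells stayed unnamed. These were clusters 13 (126 cells) and 17 (40 cells), which entered no comparison of classes. In cluster 13 S phase genes summed to 26.2, against 35.0 in VZ progenitors, 20.6 in SVZ progenitors and 2.80 in neurons. Endothelial markers, 3 of 8 measured, summed to at most 0.138 in any named cluster, and the 8 measured of 9 erythroid markers to between 1.63 and 2.35.

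Nuclear respiratory factor 1 (NRF1) is known to bind promoters of respiratory chain genes, and the promoters of the members were searched for the letters of its site. RefSeq promoters (build GRCm38.p6, 250 bases before to 50 after the start) were matched for 68 members by symbol or synonym. The core of an NRF1 site, GCGCA and GCGC with 1 free base between them, stood on either strand in 17 of the 68, 25% of them. They stood in 5.19% of all 27025 genes in the promoter table and in 10.9% of the 11475 genes that also had a row in the expression table. The windows below come from members that were highest or lowest in neurons relative to progenitors and carry the match before the RefSeq start. Capitals mark the match.

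Ndufa8: ctagagcagtGCGCTTGCGCgtcgctggag
Ndufa11: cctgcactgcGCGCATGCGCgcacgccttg
Sdhd: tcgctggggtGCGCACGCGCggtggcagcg
Sdha: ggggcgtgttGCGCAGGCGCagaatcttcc
Atp5g2: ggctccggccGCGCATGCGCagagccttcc

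These windows lie at chr2:36049349-36049378 (minus strand) for Ndufa8, chr17:56717692-56717721 (plus strand) for Ndufa11 and chr9:50603909-50603938 (minus strand) for Sdhd. They lie at chr13:74350276-74350305 (minus strand) for Sdha and chr15:102671070-102671099 (minus strand) for Atp5g2. The match begins 30 bases before the RefSeq start of Ndufa8, 60 before that of Ndufa11 and 79 before that of Sdhd. It begins 55 bases before the RefSeq start of Sdha and 42 before that of Atp5g2. The GENCODE annotation, used here for gene positions, takes the outermost transcript, and by it Ndufa8 starts 68 bases, Sdha 40 and Atp5g2 1305 further upstream, so that the windows of Ndufa8 and Atp5g2 lie inside those gene bounds. The GENCODE starts of Ndufa11 and Sdhd lie 5 and 37 bases downstream of the RefSeq ones. Ndufa8 and Ndufa11 were higher in neurons and Sdhd, Sdha and Atp5g2 lower, so the same letters stood before genes that differed in opposite directions. Among members measured in both classes and matched to a promoter, the letters stood in 4 of 15 that were higher in neurons by at least 0.32 on the log2 scale, 4 of 12 that were as much lower and 9 of 40 of the others. CCGGAAG, the core bound by ETS factors such as GABPA, stood in 16 of 68 (23.5%), against 18.9% of genes with a row. AAGATGGCG, bound by YY1, stood in 7 of 68 (10.3%), against 3.31%. No matches of different motifs shared bases, and 34 of the 68 held at least 1 of the 3 motifs. A match of letters is not evidence of binding.

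The members lie on 19 chromosomes, with 3 on X (Ndufb11, Ndufa1 and Cox7b), and 81 are annotated as protein-coding. Of these 81, 22 (27.2%) had a protein-coding neighbour that starts on the other strand within 1000 bases upstream to 100 downstream of their own start. Among all 13363 protein-coding genes with a row the same held for 1451 (10.9%). Such pairs include Ndufa8 with Morn5, Uqcrh with Lrrc41, Sdhd with the mitochondrial import gene Timm8b, and Ndufs6 with the mitochondrial ribosomal gene Mrpl36. A total of 25 members overlap a measured gene on the other strand and 1, Ndufa13, a gene on the same strand. Strand use in the counting is stated by no source used here, so reads of such pairs may not have been told apart.

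Together the 87 genes held 2.89% of all values in the table. Per cell they made up 290 per 10000 at the median, and 225 to 358 between the 5th and the 95th percentile. A total of 70 members had a level of 1 or more over all cells, 56 had a value in more than 90% of cells, and 59 stood among the 1000 genes with the highest levels. Most of the group was therefore read from abundant transcripts. The restricted isoforms, the copies and Atp5s were the sparsest members, at levels of 0.139 or less.

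Complex IV held the most abundant member, Cox4i1, its regulatory subunit that is expressed in nearly all tissues, at a level of 11.4 ± 3.87 (SD over cells, n = 3995). Cox7c, a small structural subunit, followed at 9.87. Complex V was led by Atp5b, the catalytic beta subunit, at 9.47 and by Atp5e, the epsilon subunit, at 7.73. In complex III the hinge protein gene Uqcrh had a level of 6.13 and Uqcrq 4.45. Complex I was led by the accessory subunits Ndufb9 at 5.04 and Ndufc1 at 4.37. In complex II the iron-sulfur subunit Sdhb had 2.61 and the flavoprotein subunit Sdha 1.04. The genes of one complex thus differed widely in level although their products are built into it in fixed proportions, as the plot of levels by complex shows.

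**Figure D1:**
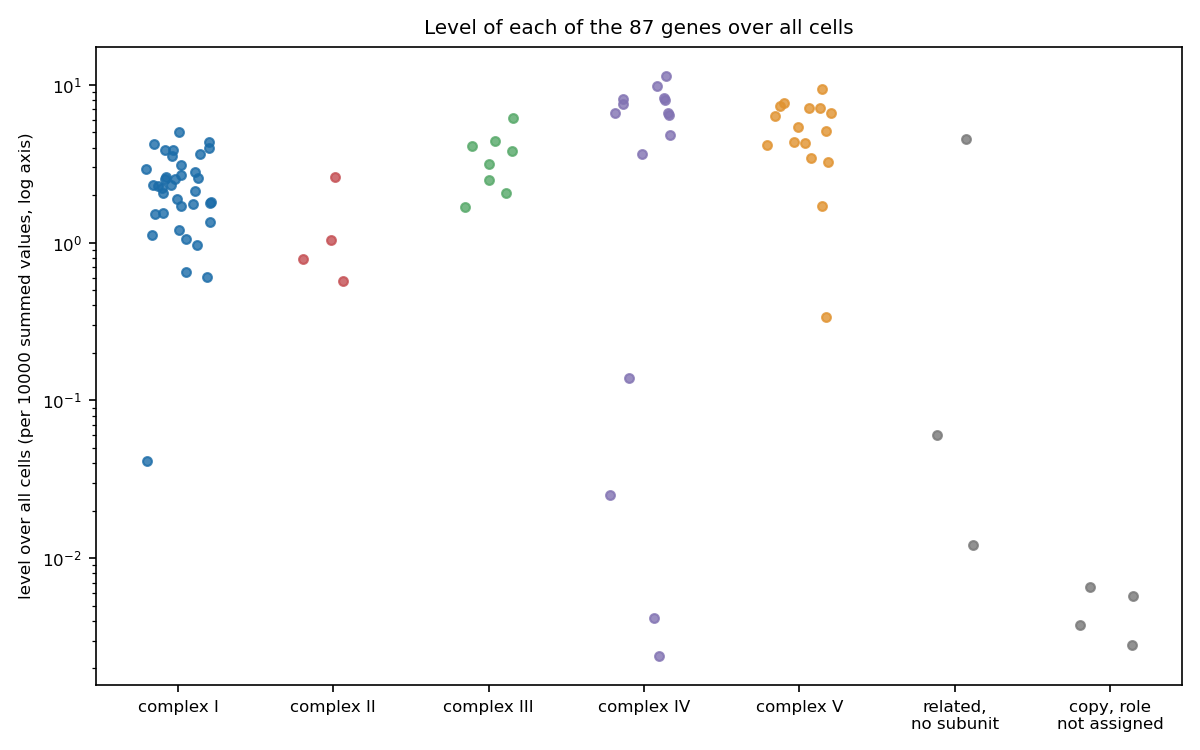
Level of each of the 87 genes over all cells (summed value per 10000, logarithmic axis) by complex, 1 point per gene with the horizontal scatter added for visibility. Cox4i1 is the highest at 11.4, and the 4 pseudogene copies without a role lie under 0.01.

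In each class the summed level of the members was close to 3% of all values: 272 ± 35.6 in VZ progenitors (SD over cells, n = 1048), 290 ± 43.7 in SVZ progenitors (n = 548) and 297 ± 40.1 in neurons (n = 2233). Within the neurons it was 295 ± 39.8 in the GABAergic class and 305 ± 39.3 in the cholinergic class. The differences between classes were smaller than the SD over cells within a class. Part of the order came from the scale. The summed value per cell before scaling was 361, 364 and 364 in VZ progenitors, SVZ progenitors and neurons, which differ in median cell total (13516, 12432 and 11986). Whether the smaller cell totals of neurons stand for less RNA was not tested.

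The complexes did not follow the same order. Complex I summed to 79.5 in VZ progenitors, 83.9 in SVZ progenitors and 90.8 in neurons, and complex IV to 73.8, 83.7 and 84.5. On these scaled values complex III (27.1, 28.7 and 28.0) and complex V (83.1, 84.6 and 83.7) were nearly level across the classes. Complex II ran the other way, at 5.68, 5.09 and 4.65. Before scaling, the summed value per cell fell in complex V (110, 106 and 102) and complex III (36.0, 35.9 and 34.3). It was 105, 105 and 111 in complex I, 97.9, 105 and 103 in complex IV and 7.53, 6.37 and 5.69 in complex II. The plot of complexes by cluster shows the same contrast between complexes I and II.

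Between clusters the summed level ranged from 262 to 323 on the scaled values. Before scaling the order differed: the summed value per cell was lowest in the neuron cluster 7 (338) and highest in cluster 12 (389). It was 346 in cluster 10 and 382 in cluster 6. The following are scaled levels. Cluster 10, SVZ progenitors led by histone genes and Top2a, was lowest at 262, and cluster 1, VZ progenitors led by histone genes and Prc1, and cluster 15, the Igfbp5 VZ progenitors, had 264 each. In these 3 clusters histone transcripts made up 217, 215 and 121 per 10000, against 13.4 to 26.7 in the others. Cluster 3, VZ progenitors with the S phase genes Ung and Cdc6, had a member level of 283 and a histone level of 20.5. Cluster 12, SVZ progenitors led by the mitosis genes Cdc20 and Ccnb2, had 317 and a histone level of 14.3, so cycling cells were among both the lowest and the highest. The part of histone transcripts in these levels was not tested for single clusters.

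The highest level was in cluster 6, young Lhx8-rich cholinergic-like neurons, at 323. That name rests on 3 of 10 measured cholinergic markers, and Lhx6, a GABAergic marker, had 3.52 in the cluster. Cluster 5, young GABAergic-like neurons led by St18, had 311. Both had few raised pan-neuronal markers, 6 and 5 of 20. The more mature GABAergic clusters 4 (led by Sst) and 7 had 293 and 279, and the cholinergic clusters 2 and 8 had 301 and 292. Of the 80 members with at least 100 summed values, 20 (25%) had their highest cluster level in cluster 6 and 13 (16.2%) in cluster 12, against 1.82% and 3.87% of all 12568 genes with as many values. The lowest level of 20 members (25%) was in cluster 10, of 15 (18.8%) in cluster 1 and of 13 (16.2%) in cluster 15, against 4.69%, 8.55% and 6.25% of all genes. These counts rest on the scaled levels. In cluster 6, 13.7% of cells almost never held the value 1, against 5.0% of all cells. This was read as a trace of depth correction, and its part in the level was not tested.

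**Figure D2:**
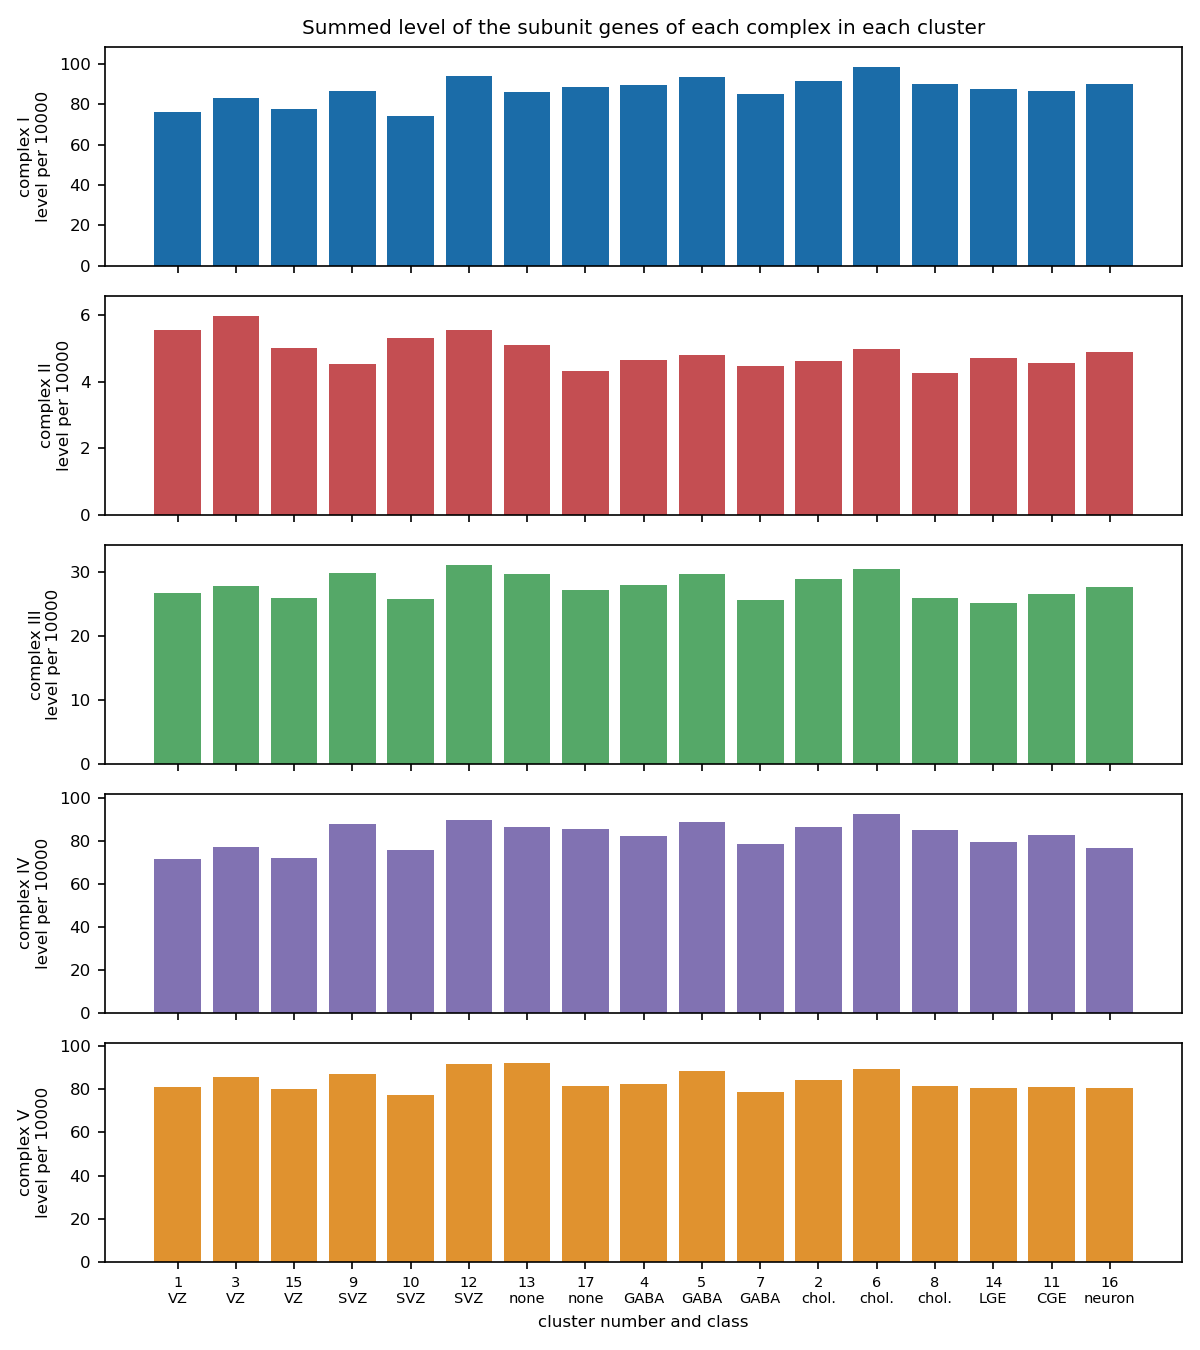
Summed level of the subunit genes of each complex (per 10000, bars from 0) in each of the 17 clusters, ordered by class, with no replicates and no error bars. Complex I is lowest in cluster 10 at 74.3 and highest in cluster 6 at 98.6, and complex II is highest in the VZ clusters 1 and 3.

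The comparison of neurons with VZ progenitors asks which members differ between cells before and after differentiation. The members furthest apart on the higher side were Ndufa8, an accessory subunit of complex I, and Cox7a2l, a supercomplex factor. Genes lower in neurons came from every complex and included Ndufa12, Sdha, Sdhd, Uqcr10 and the c-ring gene Atp5g2. A gene counted as higher or lower if the log2 ratio of its levels was at least 0.32 in size and it had at least 30 summed values in both classes together. Of 81 members with enough values, 19 were higher (background: 32.6% of 14874 genes) and 13 lower (background: 44.1%), with a median log2 ratio of 0.10 against -0.16 over all genes. So smaller shares of the members than of all genes differed in either direction. The same held among genes with a level of 1 or more: 17 of 70 were higher and 7 of 70 lower, against 38.4% and 32% of 1880 genes. The median log2 ratio was 0.13 for these 70 members and 0.05 for the 1880 genes, so the medians lay closer there. At a limit of 1.5-fold, 2 members were higher (background 25.1%) and 6 lower (background 35.3%).

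The scale moved these counts. Without scaling to the class total, the ratios of all genes shifted by -0.12, 9 members were higher (background 29.1%) and 14 lower (background 48.3%), and the member median was -0.01. All 9 were among the 19, and all 13 lower members stayed lower. Scaled to the total without the members and the ribosomal protein genes, 13 were higher (30.5% of all genes) and 14 lower (46.5%), with a member median of 0.04. Scaled without histone genes, 18 were higher and 13 lower, all of them among the 19 and the 13. The share of all genes is not given for this scale, so these counts show only how the calls moved. The values of both scales are drawn in the plot of ratios by gene. In the following, a ratio is on the scaled values.

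In complex I, 12 of 37 genes (32.4%) were higher in neurons, a share like that of all genes (32.6%), and 5 (13.5%) were lower, against 44.1% of all genes. The median was 0.17. Ndufa8, an accessory subunit of the intermembrane space side, had levels of 1.31, 1.65 and 1.60 in the VZ clusters 1, 3 and 15. It had 2.77, 2.04 and 3.47 in the SVZ clusters 9, 10 and 12, and 2.27 to 3.99 in the 9 neuron clusters. No neuron or SVZ cluster came as low as the highest VZ cluster, and over classes the level was 1.49 in VZ and 3.22 in neurons, a log2 ratio of 1.12. Ndufv3, an accessory subunit of the NADH-binding module, had 1.47 in VZ progenitors and 2.18 in neurons (log2 ratio 0.57). Other higher members with ratios near 0.5 were the accessory subunits Ndufb10 (1.89 and 2.70), Ndufa11 (2.31 and 3.30) and Ndufa6 (2.04 and 2.85).

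Ndufa12, an accessory subunit of the NADH-oxidising arm, was the lowest of the 5 lower genes of complex I. Its levels were 1.46, 1.42 and 1.39 in the VZ clusters, 0.971, 1.18 and 1.08 in the SVZ clusters and 0.609 to 0.851 in the neuron clusters. The 3 classes did not overlap and stood in the order VZ, SVZ, neuron, with a log2 ratio of -1.08 from VZ to neurons. The core subunit gene Ndufs7 (1.84 and 1.36, log2 ratio -0.44), and Ndufs6 (-0.34) and Ndufb6 (-0.33) were lower by less. Of 30 accessory genes 11 (36.7%) were higher, near the share of all genes, and 4 (13.3%) lower. Among the accessory genes is Ndufb1-ps, annotated as a noncoding transcript and higher in neurons (0.43). Another is Ndufb4c, a sparse copy related to Ndufb4 that is annotated as a processed pseudogene and was lower (-0.40).

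**Figure D3:**
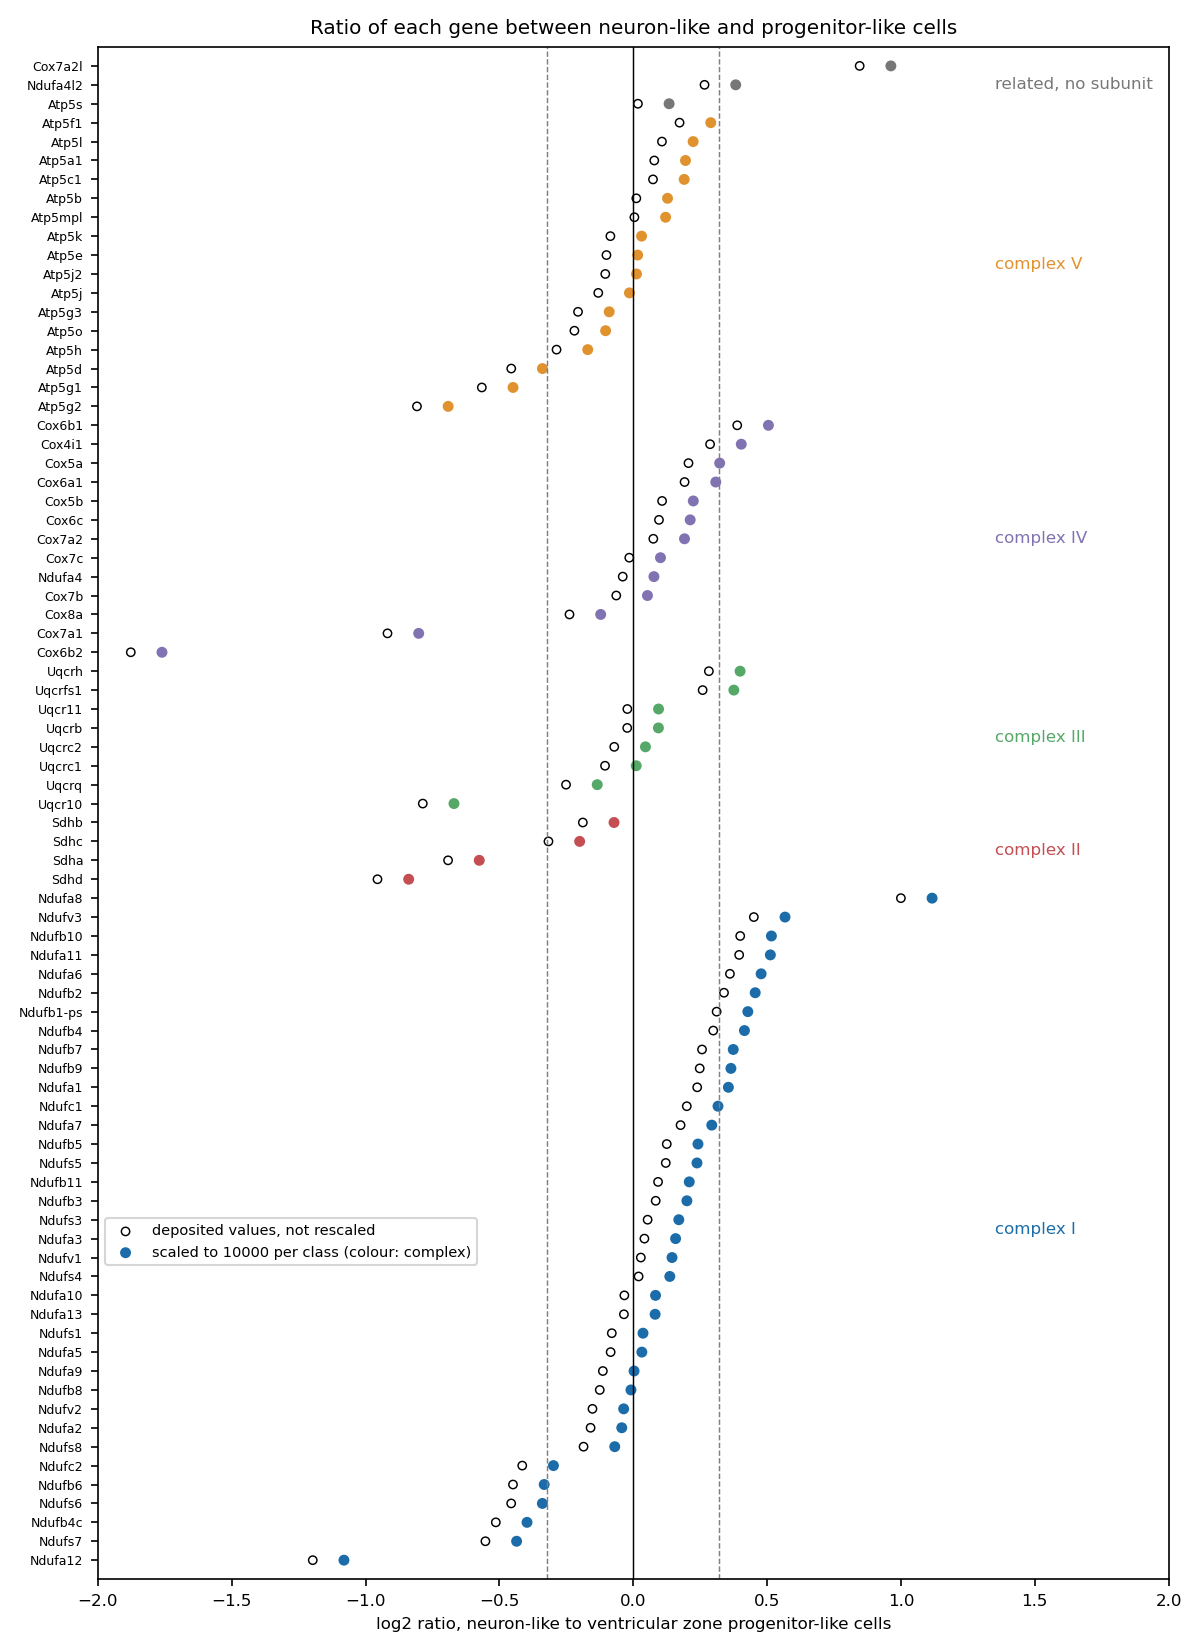
Log2 ratio of the level in neuron-like to that in VZ progenitor-like cells for 80 of the 81 genes with enough values, by complex, filled on values scaled to 10000 and open without scaling, with dashed lines at the limit of 0.32 in either direction. Ndufa8 (1.12) and Cox7a2l (0.96) lie to the right of all others, Ndufa12 (-1.08) and Cox6b2 (-1.76) to the left, and every open point lies left of its filled one.

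In complex II, 0 of 4 genes were higher and 2 were lower, and all 4 ratios were below 0. Sdhd, a membrane anchor, had 0.739 to 0.842 in the VZ clusters, 0.554 to 0.722 in the SVZ clusters and 0.388 to 0.568 in the neuron clusters. Its class levels were 0.786 in VZ and 0.440 in neurons (log2 ratio -0.84). Sdha, which holds the flavin, had 1.33 and 0.893 (-0.58). The iron-sulfur subunit Sdhb, with 2.69 and 2.56 (-0.07), and the other anchor Sdhc, with 0.866 and 0.753 (-0.20), stayed within the limit of 0.32. The share of lower genes, 2 of 4, is near the 44.1% of all genes.

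In complex III, 2 of 8 genes were higher and 1 lower. Uqcrh had 5.05 in VZ progenitors and 6.66 in neurons (log2 ratio 0.40), and the Rieske iron-sulfur protein gene Uqcrfs1 had 2.06 and 2.67 (0.38). Uqcr10, a small subunit, had 4.02 to 4.15 in the VZ clusters, 3.16 to 3.52 in the SVZ clusters and 2.19 to 2.96 in the neuron clusters. These ranges did not overlap either, and the log2 ratio from VZ to neurons was -0.67. The core proteins Uqcrc1 (0.01) and Uqcrc2 (0.05) hardly differed.

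In complex IV, 3 of 13 genes with enough values were higher and 2 lower. Cox6b1, a subunit on the intermembrane space side, had 5.04 to 5.50 in the VZ clusters, 5.80 to 6.89 in the SVZ clusters and 6.80 to 8.07 in the neuron clusters. Its log2 ratio from VZ to neurons was 0.50. Cox4i1 had 9.16 to 9.76 in the VZ clusters and 10.7 to 14.1 in the neuron clusters (log2 ratio 0.40), with no overlap. Cox5a, at 0.32, was the member just inside the limit, and Ndufc1 of complex I, at the same rounded value, the member just outside it. On the lower side Ndufb6 (-0.33) was just inside and Ndufc2 (-0.30) just outside.

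In complex V, 0 of 16 genes were higher and 3 lower, with a median of 0.01. The alpha and beta subunit genes Atp5a1 (0.19) and Atp5b (0.13) stayed within the limit. The 3 lower genes were Atp5d, the delta subunit (4.98 and 3.94, log2 ratio -0.34), and the c-ring genes Atp5g1 and Atp5g2. The c subunit, which forms the rotor ring, is encoded by Atp5g1, Atp5g2 and Atp5g3 as the same mature protein. Atp5g1 had 5.13 in VZ progenitors and 3.75 in neurons (-0.45), Atp5g2 0.431 and 0.267 (-0.69) and Atp5g3 3.63 and 3.41 (-0.09). Atp5g1 did not keep to this in every neuron cluster: in the LGE-like cluster 14 it had 5.50, above all VZ clusters (4.31 to 5.38). Atp5g2 had 0.420 to 0.450 in the VZ clusters and 0.217 to 0.302 in the neuron clusters, with no overlap.

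Cox7a2l, which joins complexes III and IV into supercomplexes, had 2.47, 3.06 and 3.52 in the VZ clusters and 4.13 to 6.32 in the neuron clusters. No cluster of one class reached the other, and over classes it had 2.83 and 5.52, a log2 ratio of 0.96. Its SVZ clusters split: cluster 10 had 3.11, within the VZ range, and clusters 9 and 12 had 5.33 and 4.66. The paralogue Cox7a2, a structural subunit of complex IV, had 5.94 in VZ progenitors and 6.79 in neurons (log2 ratio 0.19).

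Counted over clusters on the scaled levels, 26 of 81 members were higher in each of the 9 neuron clusters than in each of the 3 VZ clusters (background: 16.1% of 14874 genes), and 8 were lower in each (background: 25.7%). The 8 were Ndufa12, Sdhd, Sdha, Uqcr10, Atp5g2, Ndufs6, Ndufb6 and Atp5h. Many of the 26 stayed within the limit of 0.32, among them Uqcrb at a log2 ratio of 0.09. Without scaling Uqcrb had -0.02, and the counts over clusters are not given here without scaling. Clusters share the library and are not replicates. The map of cluster levels shows the genes past that limit.

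**Figure D4:**
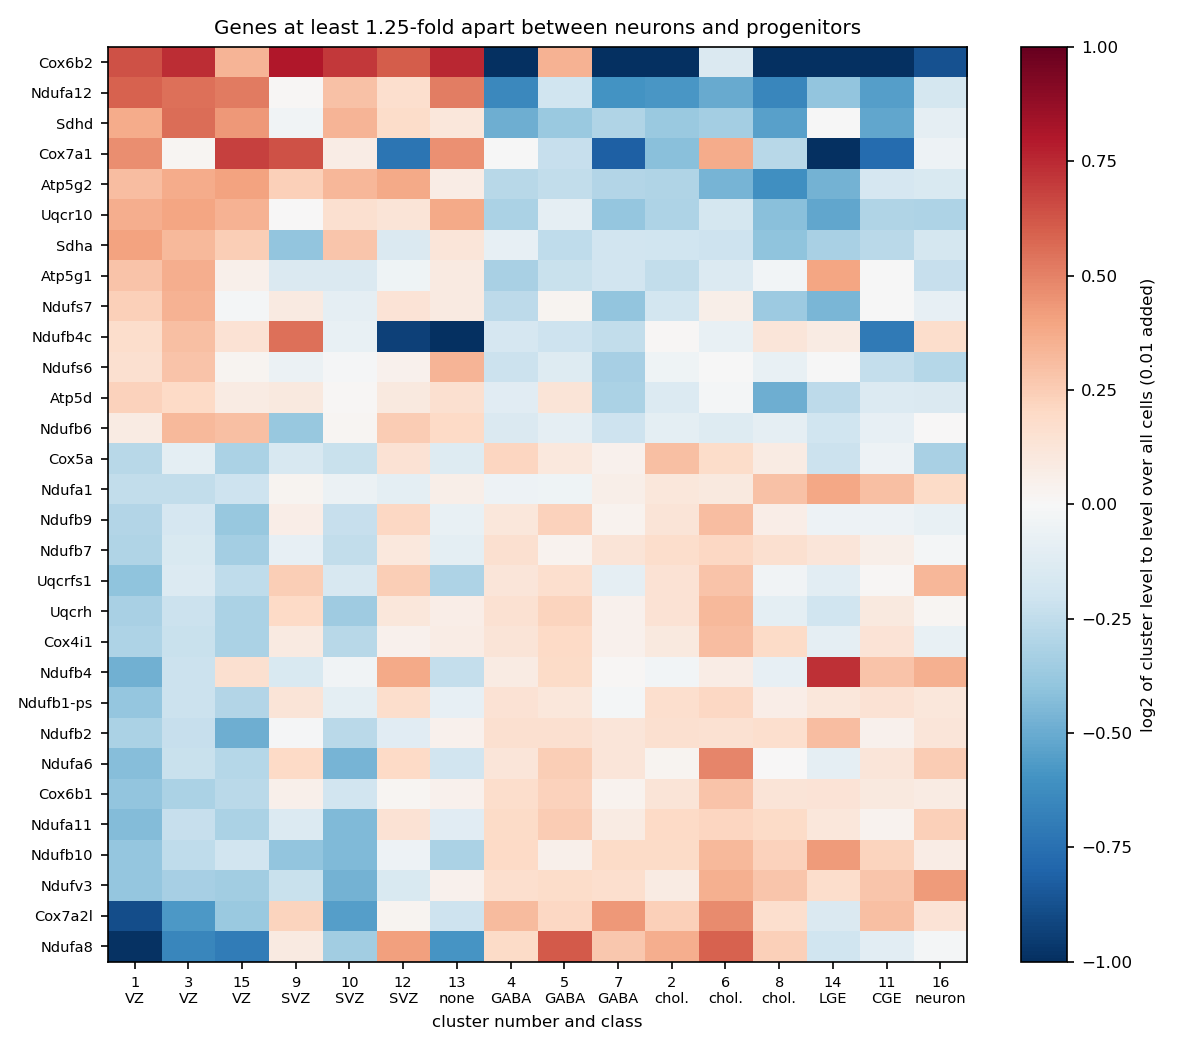
Log2 of the level in each cluster of at least 50 cells over the level in all cells (0.01 added to both) for the members past the limit of 0.32 between neurons and VZ progenitors, with at least 100 summed values and 1 gene left out. Red is above and blue below the level in all cells: Ndufa12 and Sdhd are red in the VZ clusters 1, 3 and 15, and Ndufa8 and Cox7a2l are blue there.

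Some subunits have isoforms with restricted expression in adult tissues. Cox6b2, the isoform of Cox6b1 known from testis, had a level of 0.139 over all cells, far under the 6.64 of Cox6b1. It had 0.179 to 0.239 in the VZ clusters and 0.218 to 0.251 in the SVZ clusters. In the young neuron clusters 5 and 6 it had 0.180 and 0.125, and in the other neuron clusters it had 0.0152 to 0.0716, with the highest of these in cluster 16. Over classes it had 0.224 in VZ progenitors and 0.0663 in neurons, a log2 ratio of -1.76, the lowest among members with enough values. Cox6b1 ran in the other direction.

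The other restricted isoforms were near the limit of detection. Cox7a1, known from heart and skeletal muscle, summed to 126 values over all cells, with levels of 0.0338 in VZ progenitors and 0.0194 in neurons (log2 ratio -0.80). Cox4i2, the isoform of Cox4i1 known from lung and pericytes, summed to 21 values in 13 cells, 6 of them in 1 cell. All 21 lay in VZ progenitors, and the gene was listed at 0 in SVZ progenitors and neurons. Of 6 mural cell markers only Pdgfrb was measured, at 0.00614 to 0.0545 in the VZ clusters, and the part of such cells was not tested. Ndufa4l2, a relative of the complex IV subunit Ndufa4, summed to 61 values in 35 cells, and Cox7b2 to 12 in 11 cells. The 4 pseudogene copies without a role and these isoforms, other than Cox6b2, Cox7a1 and Ndufa4l2, had too few values for a ratio.

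Between SVZ and VZ progenitors the members were close. Of 80 with enough values, 6 were higher in SVZ progenitors (background: 20% of 13276 genes) and 4 lower (background: 40.8%), with a median log2 ratio of 0.03 against -0.18 over all genes. The highest were Ndufa8 (0.85), Cox7a2l (0.61) and Uqcrfs1 (0.37). The lowest with at least 100 summed values were Atp5g1 (-0.41), Ndufa12 (-0.41) and Sdha (-0.40). Cox7a2 (0.32) was just inside the limit and Cox7c (0.31) just outside. Atp5s, which codes for a factor tied to ATP synthase and has a level of only 0.0604, was just inside on the lower side (-0.36), and Sdhd (-0.29) just outside. Among members with a level of 1 or more, 5 of 70 were higher and 2 lower, against 31.2% and 17.4% of 1880 genes. The median log2 ratio was 0.058 for these 70 members and 0.068 for the 1880 genes. At such levels the member median was therefore not above that of all genes. Without scaling, 2 were higher (background 16.8%) and 7 lower (background 45.9%), with a median of -0.05, and at 1.5-fold 2 were higher (background 11.6%) and 0 lower (background 26.8%). Since this ratio and that of the neurons share the VZ progenitors, their likeness is no independent result.

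Over clusters, on the scaled levels, 8 of 80 members were higher in all 3 SVZ clusters than in all 3 VZ clusters (background: 12%), and 4 were lower (background: 22.9%). The 8 were Ndufa8, Ndufa1, Ndufb1-ps, Uqcrb, Cox7c, Cox7a2, Cox6b1 and Cox6a1, with 4 small subunits of complex IV among them. Cox7c had 8.73 to 9.65 in the VZ clusters and 10.4 to 12.1 in the SVZ clusters. Cox7a2 had 5.62 to 6.03 and 7.01 to 8.46. The 4 lower ones were Ndufa12, Sdhd, Uqcr10 and Atp5g1.

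The study's title sets the GABAergic against the cholinergic lineage, and between these classes the members hardly differed. Lhx8, a factor of cholinergic neurons, had a log2 ratio of 1.71 from GABAergic to cholinergic neurons, and the interneuron peptide gene Sst of -3.79. Both genes are among the markers that named these classes. Lhx6, also on the GABAergic marker list, had 3.52, 3.38 and 2.60 in the GABAergic clusters 4, 5 and 7. It had 3.41, 3.52 and 2.27 in the cholinergic clusters 2, 6 and 8, so Lhx6 did not separate the classes. Of 81 members with enough values, 0 were past the limit of 0.32 higher in cholinergic neurons (background: 13% of 12636 genes) and 2 lower (background: 14.6%). The median log2 ratio was 0.04 against -0.01 over all genes. Among the members with a level of 1 or more, 0 of 70 were past the limit in either direction, against 3.88% higher and 4.2% lower of 1880 genes. The medians were 0.04 for these 70 members and 0.01 for the 1880 genes. The 2 lower members were sparse: Cox6b2 (0.0838 and 0.0604, log2 ratio -0.47) and Ndufa4l2 (-1.41). Without scaling the counts were also 0 higher (background 12.3%) and 2 lower (background 15.3%), and at 1.5-fold 0 were higher (background 6.62%) and 1 lower (background 6.63%).

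The largest difference among abundant members was that of Cox7c, with 9.05 in GABAergic and 10.9 in cholinergic neurons (log2 ratio 0.27). It had 8.33 to 10.5 in the 3 GABAergic clusters and 10.2 to 12.2 in the 3 cholinergic ones, which overlap. Ndufa5, of the peripheral arm of complex I, had 2.07 and 2.47 (0.25), with 1.86 to 2.18 and 2.21 to 2.58 in the clusters. The sparse copy Ndufb4c (0.28) was the nearest to the limit on the higher side. Atp5g2 (-0.15) was the lowest among those inside the limit, followed by Atp5s (-0.12). On the scaled levels, 8 of 81 members were higher in each cholinergic than in each GABAergic cluster (background: 4.53%), and 1, Atp5g2, was lower in each (background: 5.78%). The 8 include Ndufa5, Ndufb5, Ndufa1, Ndufs6, Ndufb11, Atp5e and Atp5j, with ratios inside the limit, and the sparse Ndufb4c.

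Lists of other mitochondrial and metabolic genes were set beside the members for the ratio of neurons to VZ progenitors. The lists were chosen with earlier results of these data known. Genes named from them, other than the highest and lowest of each list, were picked after their values were seen. The shares in each list stand beside 32.6% higher and 44.1% lower among all genes. Assembly factors of complex I, which help build it but are not part of it, were mostly lower: 4 of 16 (25%) were higher and 10 (62.5%) lower, with a median of -0.47. Ndufaf3 was the highest (0.429 and 0.703, log2 ratio 0.71) and Nubpl, which delivers iron-sulfur clusters, the lowest (0.294 and 0.112, -1.39). The list includes Ndufab1, a subunit whose symbol the rule does not take. Of the assembly factors of complexes II to V, 10 of 34 (29.4%) were higher and 14 (41.2%) lower, near the shares of all genes, and they ran from Uqcc3 (0.99) to Cmc2 (-1.53).

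Among 12 carriers and channels, 2 were higher and 5 lower. Atpif1, the inhibitor of ATP synthase, was the highest, with 6.22 in VZ progenitors and 13.5 in neurons (log2 ratio 1.12), and Etfa, of fatty acid oxidation, the lowest (-1.85). The ADP/ATP carriers ran in opposite directions: Slc25a4 had 6.05 and 11.1 (0.88), and Slc25a5 had 9.45 and 3.85 (-1.30). Cytochrome c, Cycs, had 3.87 and 2.47 (-0.65), and Cyc1, the cytochrome c1 of complex III whose symbol the rule does not take, had 2.32 and 2.47 (0.09). Of 16 genes of the TCA cycle and pyruvate dehydrogenase, 3 were higher and 6 lower, with Suclg2 the lowest (-5.40).

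Regulators of mitochondrial biogenesis were mostly lower in neurons, with 1 of 16 higher and 13 lower and a median of -0.82. The nuclear receptor gene Esrra was the one higher gene (0.159 and 0.312, log2 ratio 0.97). Nrf1, whose site was searched for in the promoters above, had 0.540 and 0.244 (-1.15), Gabpa 0.375 and 0.164 (-1.20) and Tfam, which maintains mitochondrial DNA, 1.09 and 0.481 (-1.18). Yy1 differed little (1.80 and 1.75, -0.04), and the coactivator gene Ppargc1a was sparse and the lowest (-2.68). Nuclear subunit genes and the regulators known to act on them were thus not ordered alike over the classes.

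Glycolytic genes were lower in neurons more often, with 4 of 22 higher and 16 lower and a median of -1.01. Ldha, which makes lactate, had 7.50 and 0.557 (log2 ratio -3.75), and Ldhb 2.65 and 5.12 (0.95). The highest was the neuronal enolase Eno2 (2.80) and the lowest Hk2 (-5.27). Of 8 hypoxia genes 3 were higher and 4 lower, from Ddit4 (1.22) to Vegfa (-1.90). Of 79 mitochondrial ribosomal protein genes 2 were higher and 50 lower, with a median of -0.53, from Mrpl34 (0.39) to Mrps28 (-1.73). Of 84 cytosolic ribosomal protein genes 2 were higher and 50 lower, with a median of -0.37, from Rpl26 (0.54) to Rps3a3 (-1.76). Complex I, III, IV and V genes thus had medians above 0 while these lists had medians below it on the scaled values. Without scaling, complexes III and V turned to -0.05 and -0.10, and complexes I and IV kept 0.05 and 0.07.

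**Figure D5:**
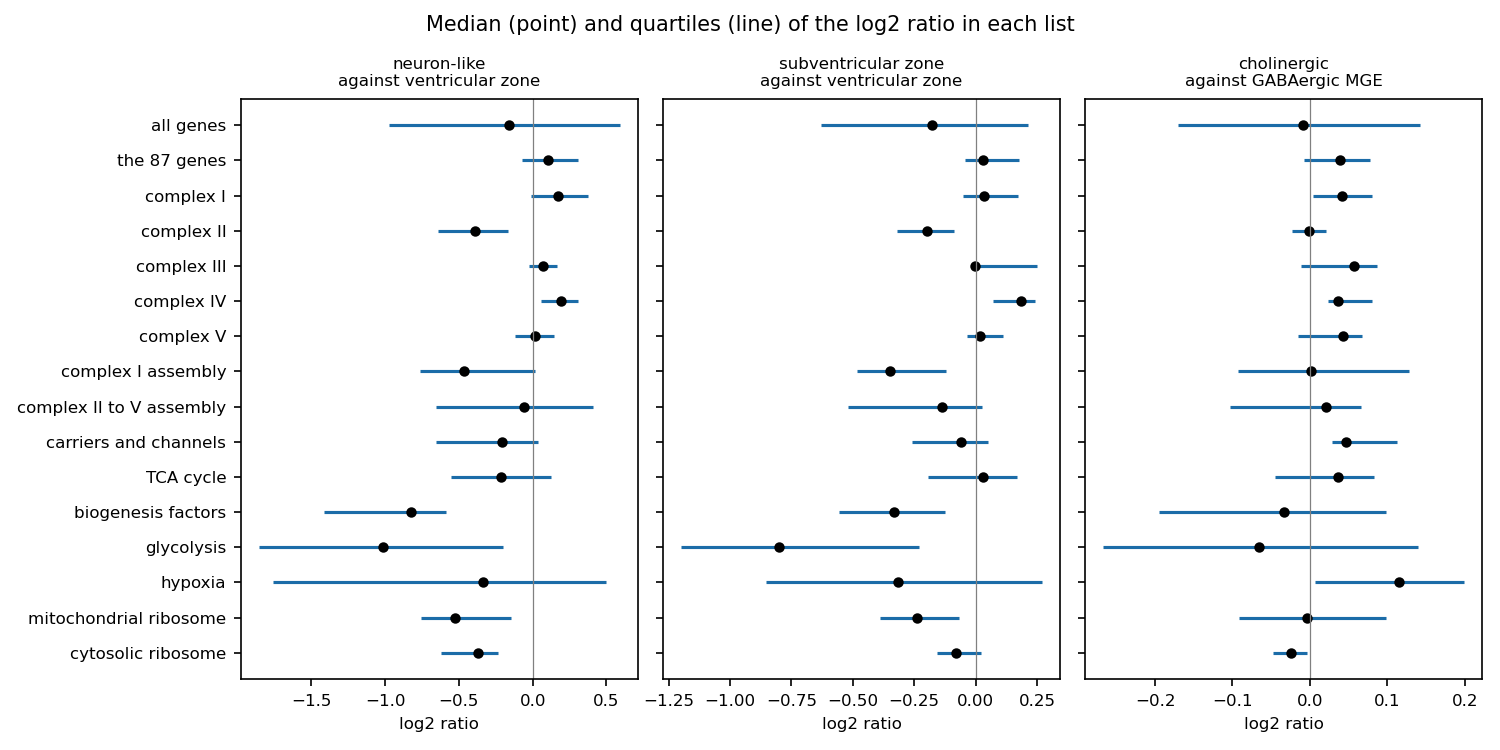
Median (point) and quartiles (line) of the log2 ratio in each gene list for the 3 comparisons of classes, on scaled values and with no error bars. In the neuron comparison glycolysis is lowest at -1.01 and complex IV highest at 0.19.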

How the data were processed

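A pool of MGE cells in 1 RNA library was measured. Cell Ranger 3.0.2, bcl2fastq and the build GRCm38 are named in the submitters' processing notes, and later steps are stated nowhere in the sources used here. The values the authors deposited are whole numbers treated as a score derived from UMI counts: cell totals are narrow, and in 200 cells (5.0%) the value 1 is nearly missing, as depth correction with rounding leaves it. No count model was used. Cells with at least 1000 genes were kept (all passed), Scrublet at an expected rate of 5% marked doublets, and scanpy 1.11.5 with igraph 0.11.9 clustered the 2000 most variable genes other than the members (30 components, 15 neighbours, resolution 1). A cluster took a class name from 15 marker lists (123 of 160 markers measured), given at least 3 markers raised 1.5-fold. On 9 rows with a repeated symbol the largest row kept it. The ratio script was tested on simulated data.

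The members and lists were chosen with earlier results of these data known, and the list of cytosolic ribosomal genes was trimmed, and the comparison with genes of level 1 or more and the cluster ranges added, after values were seen. Named were the 2 highest members of each complex, the 3 highest and lowest in each ratio, those nearest to the limit (a log2 ratio of 0.32 in size), the restricted isoforms and the highest and lowest gene of each list; other genes named were chosen after their values were seen. Alternatives covered clustering, scaling, filters, fold and classes. A planned comparison of protein sequences was not run. Single-gene results for some genes are not reported here.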

Additional observations from a re-analysis of the deposited data

How the results depend on the processing

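No paired analysis was possible because there was 1 RNA library and no replicate. The library could not be left out in turn either. Of the counts and medians of the 3 comparisons under an alternative, 92 stayed within 1.5 times of the reported count or within 0.1 of the reported median, and 28 did not. Without scaling, 9 members were higher in neurons (median -0.015), and 2 were higher and 7 lower in SVZ progenitors. At 1.5-fold, 2 were higher and 6 lower in neurons, 2 higher and 0 lower in SVZ progenitors, and 1 lower in cholinergic neurons. With no filter, 8 were lower in SVZ progenitors, and 2 higher and 5 lower in cholinergic neurons; with at least 100 summed values 1 was lower there. Without VZ clusters led by cycle genes, only cluster 15 with 117 cells was left of the VZ class, and 8 were lower in neurons. Among those that came inside the limit were Atp5g1 (4.31 in cluster 15 and 3.75 in neurons) and Atp5d (4.59 and 3.94). Ndufs7 (1.51 and 1.36) and Ndufs6 (2.57 and 2.30) did so as well. In SVZ progenitors 3 were higher at resolution 2 or with called doublets kept, and 2 with 4000 variable genes or with members clustered. In cholinergic neurons 1 was higher at resolution 0.5 or 2, with 4000 variable genes or without cells that skip the value 1, and 2 with members clustered. There, 1 was lower with 4000 variable genes, members clustered or doublets kept, and 0 with classes from marker values alone or, added after seeing the data, without the young clusters. The share of all genes at each setting is not set beside these counts here, so they show only how the calls moved. The cause of these shifts was not tested, other than for the fold limit and the filter. Cox6b2 turned from -0.47 to 0.10 in cholinergic neurons with classes from marker values alone. Ndufa8 kept 1.0 to 1.13 in neurons, Cox7a2l 0.65 to 0.97, Ndufa12 -1.20 to -1.04, Sdhd -0.96 to -0.80 and Cox6b2 -2.64 to -1.43 under every alternative run.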

Other observations

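The genes within 100000 bases of Ndufa8 were looked up after its ratio had been seen. Lhx6, Rbm18 and the sparse Ttll11 were higher in neurons by at least 0.32 on the log2 scale, as were 32.6% of all genes, and Mrrf stayed within that limit. Ndufa8 occupies chromosome 2 from 36036326 to 36049406 on the minus strand of GRCm38. Lhx6, which codes for the LIM homeobox factor of MGE interneurons, lies from 36081953 to 36105408, and Rbm18 from 36116079 to 36136773, both on the minus strand. Morn5, which starts next to Ndufa8 on the other strand and lies between it and Lhx6, had too few values for a ratio. From VZ progenitors to neurons Lhx6 had 0.0914 and 2.70 (log2 ratio 4.88), Rbm18 had 0.428 and 1.46 (1.77) and Mrrf, the next gene, 0.264 and 0.321 (0.28).

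Across the clusters Ndufa8 had 2.98 to 3.99 in the 6 GABAergic MGE-like and cholinergic-like neuron clusters, where Lhx6 had 2.27 to 3.52. In the LGE-like, CGE-like and subtype-less neuron clusters 14, 11 and 16 Ndufa8 had 2.27, 2.41 and 2.57, and Lhx6 had 0.139, 0.373 and 0.334. These 3 clusters thus had the lowest Ndufa8 levels among neurons, though still above the 1.31 to 1.65 of the VZ clusters. Rbm18 had 1.17, 1.23 and 1.07 there, against 1.44 to 1.65 in the 6 others. Ttll11, the remaining protein-coding gene within 100000 bases, had 0.00863 in VZ progenitors and 0.0304 in neurons (1.82). For the 2 other members with large ratios, Eml4 near Cox7a2l had a log2 ratio of -0.42, and Fgd6, Nr2c1 and Tmcc3 near Ndufa12 had 0.27, 0.43 and 0.67, each opposite in sign to the member. Whether the genes around Lhx6 share regulation was not tested.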
